A study of Mus musculus with 629 samples.

Results

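The genes described here are 29 mouse genes of cholesterol synthesis and its SREBP control, taken by name from the 53546 gene symbols of the deposited count table. They were followed in 615 of 629 single brain cells, 400 labelled macrophages and 215 labelled microglia; the remaining 14 cells carried a label of 7. The mice were adult C57BL/6 animals of 3 Notch3 genotypes: knockout (KO), heterozygous (Het) and wild type (WT). All carried SM22-Cre with a Rosa26 stop-tdTomato reporter, in which a smooth muscle promoter drives the recombinase, so the controls shared the transgenes. Macrophages numbered 119 KO, 70 Het and 211 WT cells, and microglia 78 KO, 58 Het and 79 WT cells. Cells had been sorted into 384-well plates and sequenced by SMART-seq2, a full-length method without molecular identifiers, so each read may be a PCR copy.

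Cholesterol is built from acetyl-CoA through the mevalonate pathway, which ends in farnesyl pyrophosphate, and then through squalene and lanosterol in a chain of sterol reactions. The membrane-bound factors SREBP-1 and SREBP-2, encoded by Srebf1 and Srebf2, switch these genes on. When sterols are scarce, the escort protein Scap carries SREBP to the Golgi, where the site-1 and site-2 proteases (Mbtps1, Mbtps2) release the active part; when sterols are plentiful, Insig1 and Insig2 hold Scap in the endoplasmic reticulum. SREBP binds the sterol regulatory element and works with the factors NF-Y and Sp1. Brain cholesterol is made locally, since lipoproteins of the blood hardly cross the blood-brain barrier.

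Promoters are shown for 3 members, Hmgcs1, Dhcr7 and Mvd. Of the 25 members with a promoter to search, Hmgcs1 alone had the strict sterol regulatory core in its window. Dhcr7 was lower in KO and Het than in WT cells, and Mvd was lower in KO macrophages. Each window runs from 250 bases before to 50 bases after a RefSeq start on GRCm38.p6, 5′ to 3′ on the strand of the gene. Capitals mark the loose sterol core TCACNNCAC and the NF-Y box CCAAT, read on either strand. Dhcr7 has 3 annotated starts, of which the last pair is shown.
Hmgcs1, chr13:119690101-119690400, plus strand: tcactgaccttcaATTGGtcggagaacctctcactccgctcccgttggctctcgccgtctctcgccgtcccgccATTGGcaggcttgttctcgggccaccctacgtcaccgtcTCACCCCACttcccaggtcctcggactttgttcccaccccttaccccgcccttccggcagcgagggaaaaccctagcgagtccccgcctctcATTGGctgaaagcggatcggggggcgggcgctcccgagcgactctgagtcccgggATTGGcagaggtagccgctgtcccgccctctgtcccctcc
Dhcr7, chr7:143823149-143823448, plus strand: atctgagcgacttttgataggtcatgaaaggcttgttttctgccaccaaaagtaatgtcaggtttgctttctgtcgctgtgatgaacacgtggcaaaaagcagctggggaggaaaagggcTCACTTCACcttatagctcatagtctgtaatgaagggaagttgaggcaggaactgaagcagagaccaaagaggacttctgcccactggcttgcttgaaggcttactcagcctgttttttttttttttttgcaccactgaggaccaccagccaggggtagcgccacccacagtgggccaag
Dhcr7, chr7:143829964-143830263, plus strand: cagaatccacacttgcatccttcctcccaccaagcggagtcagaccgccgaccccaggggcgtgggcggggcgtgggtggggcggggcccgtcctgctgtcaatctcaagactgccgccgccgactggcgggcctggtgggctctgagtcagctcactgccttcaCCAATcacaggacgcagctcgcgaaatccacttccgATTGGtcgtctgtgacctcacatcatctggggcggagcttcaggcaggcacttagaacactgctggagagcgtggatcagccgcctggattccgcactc
Mvd, chr8:122443373-122443672, minus strand: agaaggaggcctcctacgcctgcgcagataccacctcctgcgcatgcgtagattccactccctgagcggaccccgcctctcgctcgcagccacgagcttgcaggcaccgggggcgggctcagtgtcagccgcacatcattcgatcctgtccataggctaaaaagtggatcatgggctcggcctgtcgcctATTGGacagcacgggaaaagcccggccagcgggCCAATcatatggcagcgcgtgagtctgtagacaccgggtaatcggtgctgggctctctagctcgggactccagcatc

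The promoter table held 25 of the 29 members with 33 starts, without Sqle, Fdps, Fdft1 and Stard4. The strict core TCACNCCAC was found in 1 of 33 member promoters, that of Hmgcs1, and in 1.24% of all 32851 promoters. The loose form TCACNNCAC, which contains the strict one, was found in 4 of 33 (12.1%), of Hmgcs1, Hsd17b7, Msmo1 and Dhcr7, beside 3.77% of all promoters. CCAAT was found in 22 of 33 (66.7%) beside 37.4%, and the Sp1 box GGGCGG in 26 of 33 (78.8%) beside 35.7%. All motifs were searched on both strands. In Hmgcs1 the strict core lay 137 bases before the start, and in Dhcr7 the start in the middle had the loose core 130 bases upstream while the last had CCAAT boxes 85 and 49 bases upstream. These matches are letters in a window and no measure of binding.

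Levels are given as CPM, each count scaled to a summed total that leaves out the ERCC spike-ins and the ribosomal RNA Rn18s, which took 40.4% of gene counts. The Rn18s share differed by plate. It was 17.2% in Het macrophages and 16.4% in Het microglia of plate 056s, and 27.8% and 30.5% in WT ones of plate 059s. On plate 060s it was 40.7% in KO macrophages and 41.5% in KO microglia. It ran from 48.3% to 56.4% on plates 524s, 529s and 530s. Plate 056s also gave 33892157 of the 39050977 counts of Het macrophages. A pool is the cells of 1 genotype and cell type on 1 plate. Each cell type had 8 pools, of KO on plates 060s and 524s, Het on 056s, 524s and 529s, and WT on 059s, 529s and 530s. Pools held 15 to 138 cells and between 2470852 and 35356083 counts. No label names an animal, so the cells of a genotype and cell type make up 1 sample, and genotypes could be described but not tested against each other. Poisson intervals of levels cover counting error only. Intervals of shares of cells treat cells as independent draws and leave out spread between plates and animals. Fewer cells with a gene and less RNA per cell cannot be told apart in a summed level. By Xist and Ddx3y each pool was of 1 sex, and on plates 524s and 529s the 2 genotypes differed in sex. The labels went with their markers: 12 perivascular macrophage genes summed to 33873 CPM over macrophages, against 14646 CPM over microglia, and 12 microglia genes to 8668 and 48266 CPM. The targeted gene, Notch3, had 2 counts in 1 KO cell, 0 in Het cells and 77 counts in 1 WT cell among macrophages, and 1 count in 1 cell of each genotype among microglia, too few to check the genotype labels.

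Together the 29 genes took about 0.1% of counts in either cell type. Their sum was 1150 CPM over macrophages and 1142 CPM over microglia. In macrophages the pools stood at 1211 and 1137 CPM in KO, 1229, 1017 and 974 CPM in Het, and 1231, 754 and 1088 CPM in WT. In microglia they stood at 1316 and 951 CPM in KO, 946, 1030 and 1154 CPM in Het, and 1218, 864 and 1780 CPM in WT. The genotypes overlapped in both cell types, and the lowest macrophage and the lowest microglia pool were both WT of plate 529s. A macrophage held a count of a median of 7 members and a microglial cell of 9.

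**Figure D1:**
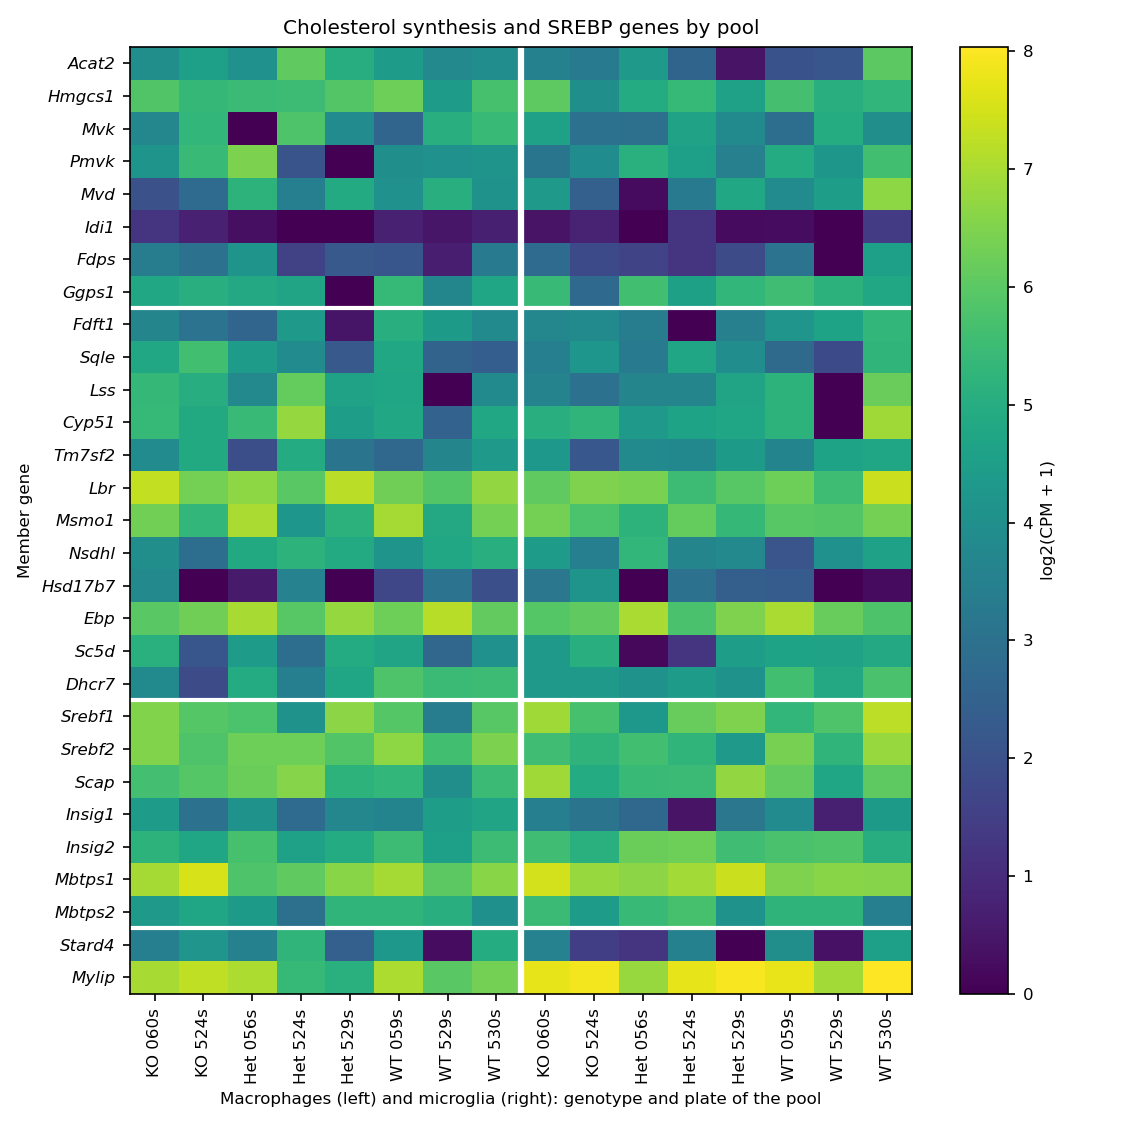
Level of each of the 29 members, as log2(CPM + 1) in colour, in every pool of macrophages (left) and microglia (right), with KO, Het and WT from left to right; white lines part mevalonate steps, sterol steps, SREBP control and sterol handling from top to bottom. Mylip, Ebp, Lbr and Mbtps1 form the brightest rows and Idi1 the darkest, and many other members change from pool to pool of 1 genotype.

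A member counted as measured when it reached 5 CPM over the cell type with a count in at least 10% of its cells. This held for 27 members in macrophages, not for Idi1 and Hsd17b7, and for 26 in microglia, where Stard4 was short too. A member is called apart between genotypes when the summed levels differ at least 1.5-fold and every pool of one lies above every pool of the other. With 2 or 3 pools a side this rule is easily met, so each count stands beside the share of all measured genes that met it.

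In KO against WT macrophages 4 members were lower, Fdft1, Nsdhl, Dhcr7 and Mvd, beside 8.35% of 8223 genes, and 1 was higher, Lss, beside 4.3%. In KO against WT microglia 3 members were lower, Fdft1, Dhcr7 and Pmvk, beside 4.98% of 9217 genes, and 1 was higher, Mbtps1, beside 6.01%. In Het against WT, Dhcr7 was the sole member lower in macrophages, beside 4.95%, and Fdft1, Dhcr7 and Sc5d were lower in microglia, beside 3.09%; no member was higher, beside 2.1% in macrophages and 2.57% in microglia. In KO against Het, Sqle and Mbtps1 were higher in macrophages, beside 6.21%, and Nsdhl and Mvd lower, beside 5.1%. In microglia Cyp51 was higher, beside 6.72%, and Lss lower, beside 4.45%. With 1 to 4 members a direction, most of these shares are near the background. These comparisons share their WT or Het cells, and the values of each are given side by side below.

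In macrophages the median member lay near the median gene. Its log2 ratio was -0.03 for KO over WT, beside -0.09 for all genes, 0.09 for Het over WT, beside -0.05, and 0.14 for KO over Het, beside -0.02. In microglia the median member was lower in both mutant genotypes, at -0.37 for KO over WT, beside -0.06 for all genes, and -0.38 for Het over WT, beside -0.07; it was 0.23 for KO over Het, beside 0.02. Inside plate 529s, the one plate with Het and WT, the microglial median was 0.02. Inside plate 524s, the one plate with KO and Het, the median was -0.27 for KO over Het, beside 0.06 for all genes. Without WT plate 530s the microglial medians over WT were -0.23 for KO and -0.12 for Het, beside -0.09 for all genes in both; without plate 059s they were -0.50 and -0.83, and without KO plate 060s the KO median was -0.69.

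Dhcr7 was the one member that was apart from WT, and lower, in both mutant genotypes of both cell types. It encodes the 7-dehydrocholesterol reductase that makes cholesterol in the last step of one branch. In macrophages Dhcr7 stood at 13.0 and 2.60 CPM in the KO pools, at 29.9, 10.1 and 25.7 CPM in the Het pools and at 55.4, 43.8 and 44.4 CPM in the WT pools. In microglia it stood at 19.4 and 19.6 CPM in KO, at 16.3, 20.3 and 16.7 CPM in Het and at 47.7, 28.0 and 52.4 CPM in WT. Every KO pool and every Het pool of either cell type therefore lay below every WT pool of that cell type. Summed, Dhcr7 was at 10.3 CPM (95% Poisson interval 8.88 to 11.9) in KO, 28.3 CPM (26.7 to 30.1) in Het and 47.9 CPM (46.1 to 49.7) in WT macrophages. In microglia it was at 19.5 CPM (17.6 to 21.5) in KO, 16.9 CPM (15.3 to 18.6) in Het and 46.3 CPM (43.8 to 48.9) in WT. The log2 ratio over WT was -2.11 for KO and -0.74 for Het macrophages, and -1.21 for KO and -1.40 for Het microglia. In all 4 of these comparisons at once the rule was met by 3 of 8065 genes measured in both (0.0372%), which were Dhcr7, the early response gene Egr1 and the proteasome gene Psma6; this combined rule was chosen after the values were seen. Macrophages and microglia of a genotype come from the same plates, so the cell types are no independent check of each other. Without plate 060s the KO over WT log2 ratio in macrophages was -3.76, and without plate 056s the Het over WT one was -1.35. With any of the 6 plates left out, Dhcr7 stayed apart in all 4 comparisons. Leaving out a plate only removes pools, so pools already apart stay apart. Only the limits on fold and on measured genes could then fail, which makes this a weak check. With Rn18s kept in the total, the Het over WT ratio was -0.27 in macrophages and -1.33 in microglia, and Dhcr7 was apart in neither, while the KO calls held.

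The counts behind Dhcr7 were few and uneven. In the KO macrophage pool of plate 524s it had 12 counts in 2 of 21 cells, and in the Het macrophage pool of plate 056s 1 cell held 86.6% of its 1013 counts. In the WT microglia pool of plate 529s 1 of 15 cells held 96.7% of its 90 counts. Without the top cell of each pool Dhcr7 remained apart for KO and for Het against WT macrophages, and was not apart in either microglial comparison. Cells with fewer than 50000 counts were left out of thinning, which kept 103 of 119 KO, 66 of 70 Het and 206 of 211 WT macrophages. Thinned to 50000 counts, Dhcr7 had a count in 13.6% of KO (exact 95% interval 7.63 to 21.8), 10.6% of Het (4.37 to 20.6) and 22.8% of WT (17.3 to 29.2) macrophages. In microglia these shares were 24.0% (14.9 to 35.3) in KO, 24.5% (13.8 to 38.3) in Het and 27.3% (17.7 to 38.6) in WT, closer together than the levels. Unthinned they were 21.0%, 24.3% and 28.4% of KO, Het and WT macrophages, and 30.8%, 36.2% and 32.9% of microglia. Inside plate 529s the log2 ratio of Het over WT was -0.75 in macrophages and -0.72 in microglia, where the rule itself fixed the direction. Inside plate 524s that of KO over Het was -1.63 in macrophages and -0.05 in microglia.

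Signs of other cells and of handling moved with Dhcr7 in part. The 8 oligodendrocyte genes summed to 498 and 544 CPM in KO, 603, 1646 and 750.0 CPM in Het and 992, 861 and 632 CPM in WT macrophages, so KO lay below WT here as well. In microglia that sum was 445 and 527 CPM in KO, 414, 648 and 318 CPM in Het and 560, 361 and 453 CPM in WT, with overlap. The 15 immediate early and dissociation stress genes summed to 588 and 1270 CPM in KO and 2143, 5288 and 960 CPM in WT macrophages, with overlap. Gene by gene, 11 of 11 measured ones had a lower level in KO than in WT macrophages, with a median log2 ratio of -0.98 beside -0.09 for all genes, and Fos, Egr1, Ier2 and Btg2 were apart. In Het macrophages 8 of 11 had a lower level than in WT, with a median of -0.26. In microglia they summed to 926 and 1326 CPM in KO, 1038, 1222 and 1031 CPM in Het and 1535, 4979 and 1219 CPM in WT. There 11 of 12 measured ones had a lower level in KO than in WT, with a median log2 ratio of -0.71, and 10 of 12 in Het, with a median of -0.99; Egr1 was lower and apart in all 4 comparisons, as Dhcr7 was. The median depth per cell was 124693 counts in KO, 285909 in Het and 225315 in WT macrophages. The part of these differences in the level of Dhcr7 was not tested.

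**Figure D2:**
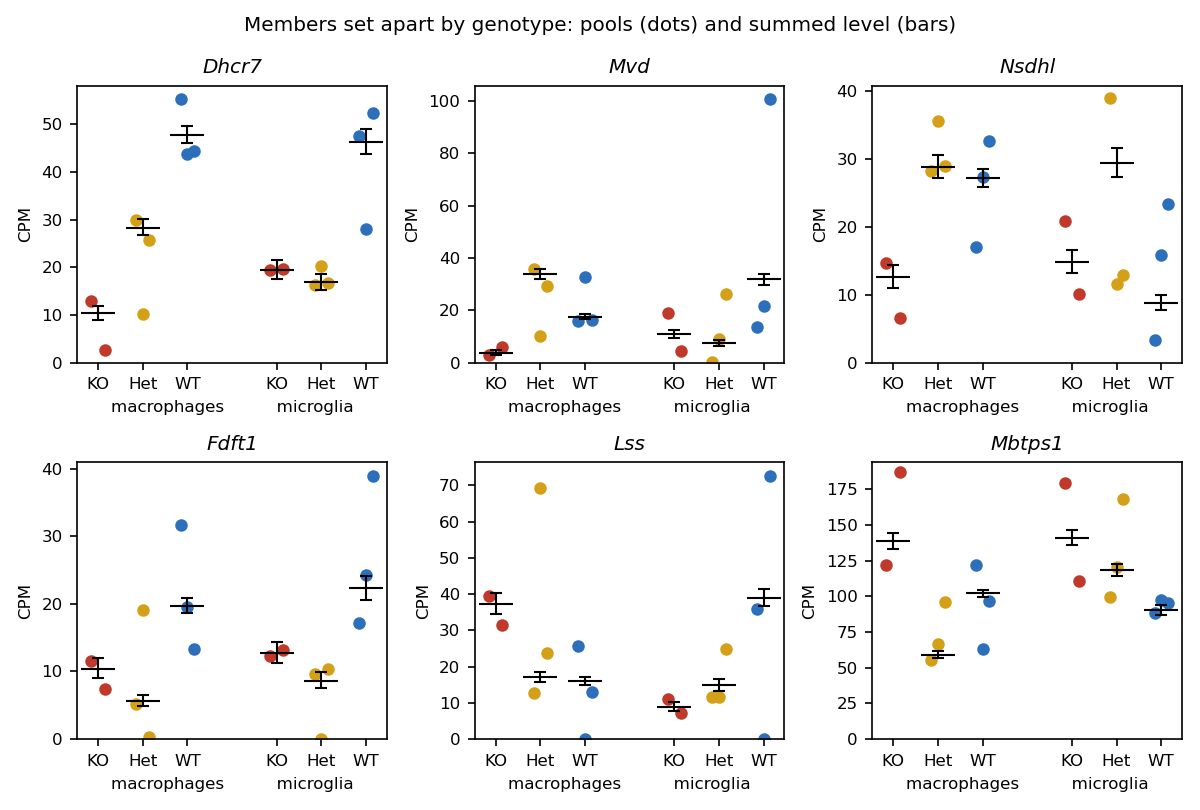
CPM of 6 members that were apart in at least 1 comparison, in KO, Het and WT macrophages (left of each panel) and microglia (right); dots are pools, and the black bars give the summed level with its exact Poisson 95% interval, which covers counting error. The KO and Het dots of Dhcr7 lie below the WT dots in both cell types, while the order of Nsdhl, Lss and Mbtps1 differs between the cell types.

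Among the mevalonate steps, Mvd, the decarboxylase that yields isopentenyl pyrophosphate, was lowest in KO macrophages. It stood at 2.97 and 6.08 CPM in the KO pools, at 35.8, 10.1 and 29.4 CPM in Het and at 15.7, 32.9 and 16.3 CPM in WT. No KO pool reached any Het or WT pool, and the log2 ratios were -1.96 over WT and -2.86 over Het. Only 8 of 119 KO macrophages had a count of Mvd, beside 14 of 70 Het and 32 of 211 WT cells. In thinned macrophages 3.88% of KO (1.07 to 9.65), 13.6% of Het (6.43 to 24.3) and 11.2% of WT cells (7.21 to 16.3) had one. In microglia Mvd was at 18.8 and 4.56 CPM in KO, 0.186, 9.15 and 26.4 CPM in Het and 13.6, 21.5 and 101 CPM in WT, where the KO and WT pools overlapped and the summed log2 ratio was -1.48. In cells thinned to the 10th percentile of depth Mvd was not apart in macrophages over either control.

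Pmvk, phosphomevalonate kinase, was at 7.79 and 13.9 CPM in KO, 33.5, 22.4 and 10.4 CPM in Het and 29.6, 18.1 and 48.1 CPM in WT microglia. The KO pools lay below the WT pools, with a log2 ratio of -1.43, but the KO pool at 13.9 CPM exceeded the Het pool of plate 529s. Without the top cell of each pool the ratio was -1.08 and Pmvk was not apart. In macrophages Pmvk had no such order, at 17.1 and 42.3 CPM in KO, 86.4, 3.24 and 0 CPM in Het and 15.1, 15.6 and 16.9 CPM in WT. The Het level of 75.2 CPM thus rested on plate 056s.

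Hmgcs1, the cytosolic HMG-CoA synthase and a standard SREBP-2 target, was at 53.0 CPM in KO, 44.7 CPM in Het and 56.4 CPM in WT macrophages. In microglia it was at 36.7 CPM in KO, 29.6 CPM in Het and 45.4 CPM in WT. Its pools overlapped in all 6 genotype comparisons, with log2 ratios between -0.60 and 0.30. Fdps, the farnesyl pyrophosphate synthase, stood at 8.97 CPM in KO, 15.1 CPM in Het and 6.62 CPM in WT macrophages, and at 4.07, 2.15 and 9.47 CPM in KO, Het and WT microglia. The Het macrophage level rested on plate 056s, at 17.0 CPM, beside 2.02 and 3.72 CPM on plates 524s and 529s. Pools of Fdps overlapped in every genotype comparison. Idi1, the isopentenyl isomerase, had 0.57 CPM over macrophages and 0.40 CPM over microglia, and its level of 1.13 CPM in KO, 0.230 CPM in Het and 0.622 CPM in WT macrophages, with 0.552, 0.199 and 0.470 CPM in microglia, is too low to compare. Part of the transcript of Idi1 is nearly identical to other genes, and exons of Fdps overlap another gene on the same strand, so their counts are uncertain. The other mevalonate and isoprenoid members, Acat2, Mvk and Ggps1, ran from 4.46 to 29.5 CPM by genotype in macrophages and from 9.59 to 42.6 CPM in microglia, and none was apart. Acat2 shares sequence with Acat3 and Tcp1 and is uncertain.

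Among the sterol steps, Fdft1, the squalene synthase at the branch point, stood at 11.5 and 7.38 CPM in KO, 5.13, 19.0 and 0.372 CPM in Het and 31.7, 19.6 and 13.3 CPM in WT macrophages. In microglia it stood at 12.3 and 13.1 CPM in KO, 9.56, 0 and 10.4 CPM in Het and 17.1, 24.3 and 39.0 CPM in WT. The KO pools lay below the WT pools in both cell types, with log2 ratios of -0.86 in macrophages and -0.76 in microglia. Without plate 059s the ratio in macrophages was -0.40, and without plate 530s that in microglia was -0.48, and Fdft1 was apart in neither; in thinned cells and without the top cell of each pool it was apart in neither cell type. With Dhcr7 it was 1 of 2 members lower in KO in both cell types, of 26 measured in both, beside 0.67% of 8065 genes. None was higher in both, beside 0.434%. This joint rule was not among the planned comparisons, and the cell types share their plates. Exons of Fdft1 overlap those of Ctsb, an abundant cathepsin gene on the other strand, and a pseudogene resembles it, so its counts are uncertain.

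Lss, the lanosterol synthase that closes the rings, was higher in KO than in WT macrophages but lower in KO than in Het microglia. In macrophages it stood at 39.5 and 31.5 CPM in KO, 12.7, 69.2 and 23.8 CPM in Het and 25.8, 0 and 13.1 CPM in WT, and KO lay above WT with a log2 ratio of 1.17. The ratio stayed between 1.01 and 1.41 over 9 alternatives that kept all plates, but Lss was not apart in 4 of them: with Rn18s kept in the total, with CPM averaged over single cells, in thinned cells and with the top cell of every pool removed. In microglia it stood at 11.1 and 7.15 CPM in KO, 11.7, 11.5 and 24.9 CPM in Het and 35.9, 0 and 72.7 CPM in WT. There the KO pools lay below the Het pools, with a log2 ratio of -0.68, and above the WT pool without a count but below the other WT pools. The call was lost in 5 of 9 alternatives that kept all plates. Without plate 524s that ratio was -0.43 and without plate 529s -0.36, and it turned to 0.12 in thinned cells, with Lss not apart in any of these. Nsdhl, a demethylation enzyme, stood at 14.7 and 6.51 CPM in KO, 28.3, 35.6 and 29.0 CPM in Het and 17.0, 27.3 and 32.6 CPM in WT macrophages. KO lay below both WT, by a log2 ratio of -1.05, and Het, by -1.13. With plate 530s left out the ratio over WT was -0.57 and Nsdhl was not apart, and without plate 060s the ratios were -1.91 and -1.99. With CPM averaged over single cells the ratios were -0.11 over WT and -0.60 over Het, and without the top cell of each pool -1.08 and -1.01, with Nsdhl apart in none of these. In microglia Nsdhl was at 14.8 CPM in KO, 29.5 CPM in Het and 8.75 CPM in WT, with overlapping pools.

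Sqle, the squalene epoxidase, stood at 26.4 and 48.2 CPM in KO, 20.7, 13.8 and 3.72 CPM in Het and 26.4, 4.95 and 4.33 CPM in WT macrophages. KO was above Het with a log2 ratio of 0.71, and 1 WT pool reached the lower KO pool. Sqle was not apart from Het in thinned cells, nor with Rn18s kept in the total, where the ratio was 0.30. The ratio over Het was 1.79 without plate 056s, 1.29 without plate 060s and 0.42 without plate 524s, where Sqle was not apart. In microglia Sqle was at 14.4 CPM in KO, 12.4 CPM in Het and 11.6 CPM in WT. Cyp51, the lanosterol demethylase, was at 32.6 and 37.1 CPM in KO, 19.3, 24.4 and 26.2 CPM in Het and 35.5, 0 and 119 CPM in WT microglia. KO exceeded Het by a log2 ratio of 0.68, while WT spanned both; without plate 056s the ratio was 0.44 and Cyp51 was not apart, and the call was lost in 4 of 9 alternatives that kept all plates, with ratios of 0.47 to 0.56. In macrophages Cyp51 was at 37.6 CPM in KO, 44.8 CPM in Het and 24.9 CPM in WT.

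Sc5d, the lathosterol desaturase just before Dhcr7, was at 19.4 and 31.7 CPM in KO, 0.124, 1.36 and 21.8 CPM in Het and 24.6, 23.7 and 28.0 CPM in WT microglia. Het lay below WT, with a summed log2 ratio of -2.01 that was -0.12 inside plate 529s, -0.70 without plate 056s and -4.33 without plate 529s. With the top cell of every pool removed Sc5d was not apart. In macrophages Sc5d was at 25.5 CPM in KO, 20.3 CPM in Het and 17.9 CPM in WT. Ebp, the sterol isomerase, was among the highest members per kilobase of exon in both cell types. Its level was 66.7 CPM in KO, 120 CPM in Het and 76.6 CPM in WT macrophages, and 62.9, 110.1 and 106 CPM in KO, Het and WT microglia. Lbr, a sterol reductase that also anchors chromatin in the nuclear envelope, was at 136 CPM in KO, 102 CPM in Het and 92.0 CPM in WT macrophages and at 79.2, 73.7 and 90.5 CPM in KO, Het and WT microglia, and neither was apart. The other sterol members, Tm7sf2, Msmo1 and Hsd17b7, ran from 1.13 to 114 CPM by genotype in macrophages and from 1.91 to 65.2 CPM in microglia, and none was apart. Exons of Tm7sf2 overlap Vps51 on the same strand, and 7.01% of the Msmo1 transcript is nearly identical to parts of 10 other genes. Their counts are uncertain.

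Among the SREBP control genes, Mbtps1, the site-1 protease, was the sole member apart. It stood at 122 and 187 CPM in KO, 55.7, 66.8 and 96.0 CPM in Het and 122, 63.4 and 97.1 CPM in WT macrophages. In microglia it stood at 179 and 111 CPM in KO, 99.6, 121 and 168 CPM in Het and 88.2, 97.2 and 95.4 CPM in WT. KO lay above Het in macrophages, with a log2 ratio of 1.22, and above WT in microglia, with a log2 ratio of 0.63; in macrophages the KO and WT pools overlapped and the log2 ratio of KO over WT was 0.44. Without plate 060s the microglial ratio over WT was 0.29 and without plate 059s 0.55, with Mbtps1 not apart in either, and it was 0.98 without plate 524s. With Rn18s kept in the total it was 0.47 and Mbtps1 was not apart. The macrophage ratio over Het was 0.75 without plate 056s, and in thinned cells it was 0.80 and Mbtps1 was not apart.

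The factors themselves were not apart. Srebf2 stood at 81.6 CPM in KO, 73.9 CPM in Het and 87.7 CPM in WT macrophages and at 41.0, 39.5 and 82.8 CPM in KO, Het and WT microglia. In microglia its log2 ratio over WT was -1.05 for Het and close to that for KO, but the WT pools stood at 82.8, 37.1 and 110.0 CPM and the KO pools at 46.4 and 36.8 CPM. Srebf1 was at 83.2 CPM in KO, 54.1 CPM in Het and 56.1 CPM in WT macrophages and at 79.9, 41.7 and 63.3 CPM in KO, Het and WT microglia. Scap was at 51.3 CPM in KO, 72.4 CPM in Het and 39.9 CPM in WT macrophages and at 68.8, 57.0 and 63.1 CPM in KO, Het and WT microglia. Insig1, itself an SREBP target, was at 17.3 CPM in KO, 15.3 CPM in Het and 20.4 CPM in WT macrophages and at 8.68, 5.53 and 13.4 CPM in KO, Het and WT microglia. Insig2 and Mbtps2 ran from 20.3 to 48.0 CPM by genotype in macrophages and from 30.9 to 67.8 CPM in microglia. Over 28.4% of its exon length Mbtps2 overlaps Yy2 on the same strand, so its counts are uncertain.

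**Figure D3:**
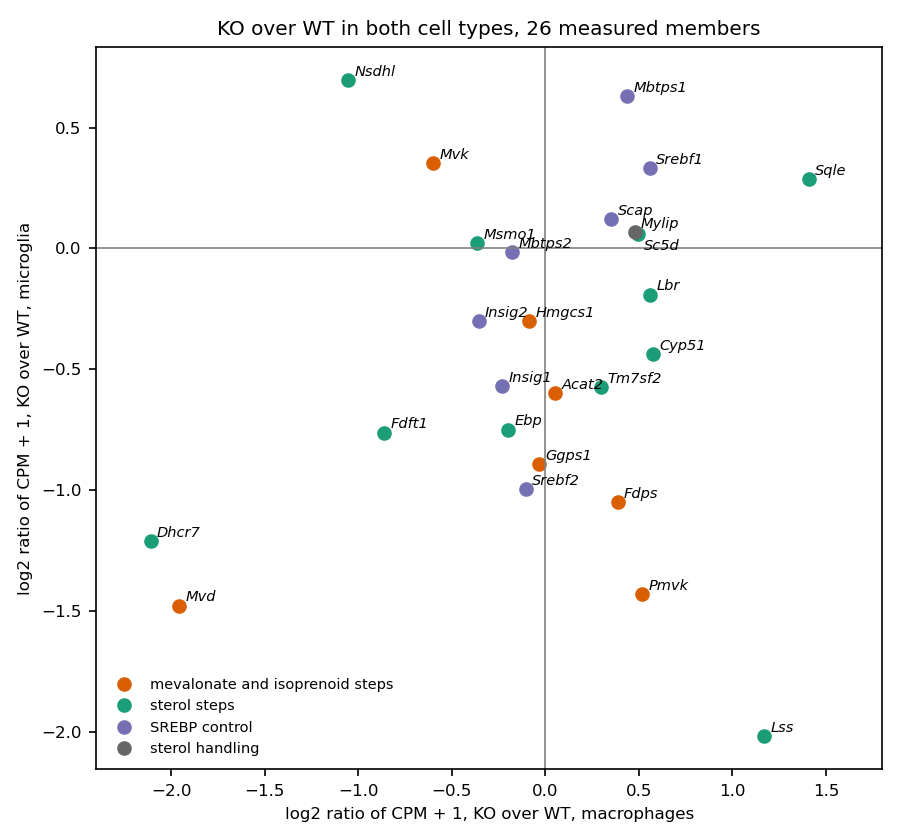
Log2 ratio of CPM + 1 for KO over WT of the 26 members measured in both cell types, macrophages on the horizontal and microglia on the vertical axis, coloured by role. Dhcr7 and Mvd lie far to the lower left, at -2.11 and -1.96 in macrophages and -1.21 and -1.48 in microglia, and Lss lies at 1.17 and -2.02.

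No member was apart between the cell types. By the rule of 1.5-fold in the summed level and 1 direction in all 8 pools that hold both, 0 of 27 measured members were higher and 0 lower in macrophages, beside 3.14% and 4.75% of 8784 genes. This comparison is a description, since how the cell type labels were assigned is not given in the sources used here. The median log2 ratio of members was 0.23, beside 0.04 for all genes, and was 0.46 for the mevalonate steps, 0.08 for the sterol steps and -0.25 for SREBP control.

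The nearest to apart was Mylip, the ubiquitin ligase also called Idol, which sends lipoprotein receptors to degradation and is switched on by sterol-sensing LXR. The summed Mylip level was 109 CPM over macrophages, against 197 CPM over microglia. It was lower in macrophages in 7 of 8 pools, by log2 ratios between -2.84 and -0.61, and higher by 0.24 in Het of plate 056s. At 50000 counts a cell, 34.4% of macrophages (29.6 to 39.4) and 75.1% of microglia (68.6 to 80.9) had a count. Microglia had the larger share in 8 of 8 pools, as they had for Insig2, Ebp and Mbtps1. Unthinned the shares for Mylip were 43.5% and 85.1%. By genotype Mylip was at 134 CPM in KO, 118 CPM in Het and 96.1 CPM in WT macrophages and at 225 CPM in KO, 155 CPM in Het and 215 CPM in WT microglia, with overlapping pools. Per kilobase of exon it was the highest member in microglia, at 60.9 CPM per kb, ahead of Ebp at 41.4 and Lbr at 17.1 CPM per kb. In macrophages Ebp was highest at 38.8 CPM per kb, ahead of Mylip at 33.8 and Pmvk at 21.7 CPM per kb, which hardly exceeded Lbr at 21.4 CPM per kb.

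At 1 depth, 24 of 29 members had a count in a larger share of microglia than of macrophages, but so did 88.8% of measured genes. The median difference was -6.91 percentage points for members and -8.68 for all measured genes. Microglia held a median of 3652 and macrophages of 2680 genes per thinned cell, after 10 and 25 shallower cells were left out. The exceptions were Idi1, Fdps, Insig1, Acat2 and Stard4. Stard4, a sterol transfer protein, reached 18.2 CPM over macrophages, against 7.84 CPM over microglia, and was higher in macrophages in 6 of 8 pools, and had a count in 9.87% and 4.88% of thinned cells.

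**Figure D4:**
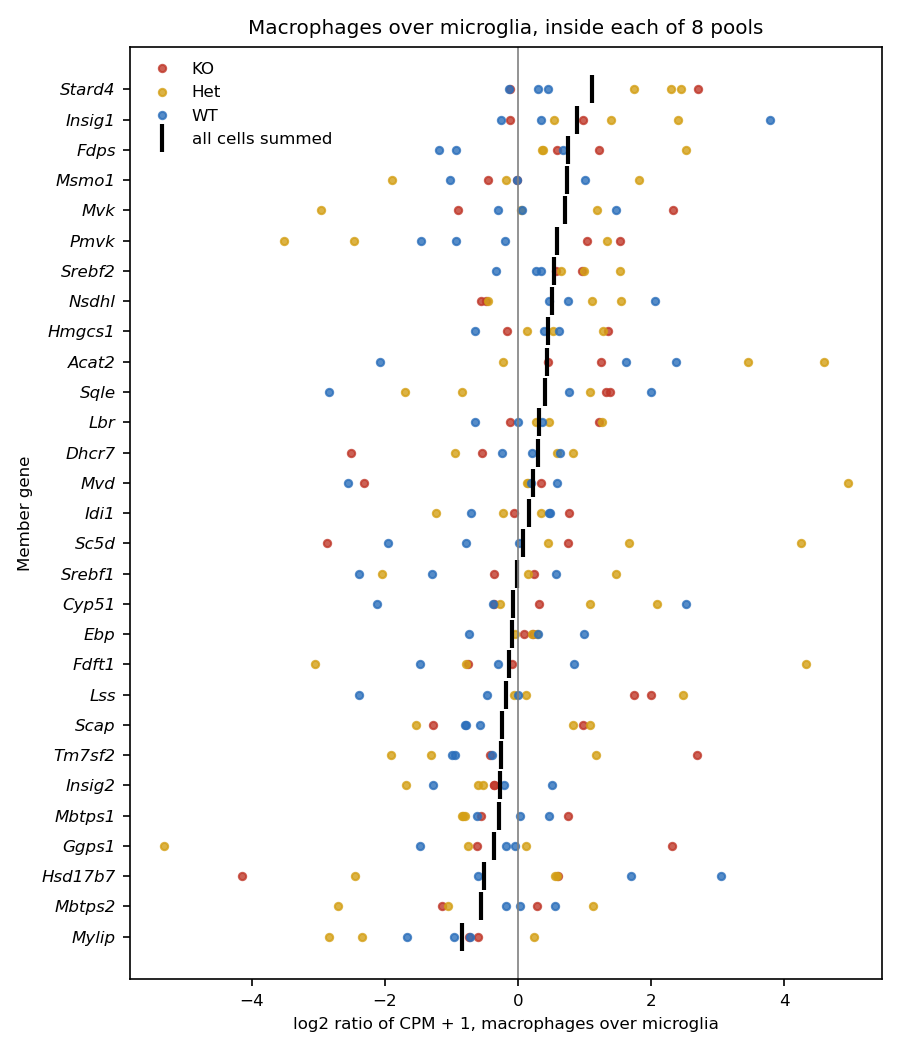
Log2 ratio of CPM + 1, macrophages over microglia, of each member inside each of 8 pools (dots, coloured by genotype) and over all cells summed (black bars), ordered by the latter. Dots lie on both sides of 0 for every member, and Mylip has 7 of 8 below it.

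**Figure D5:**
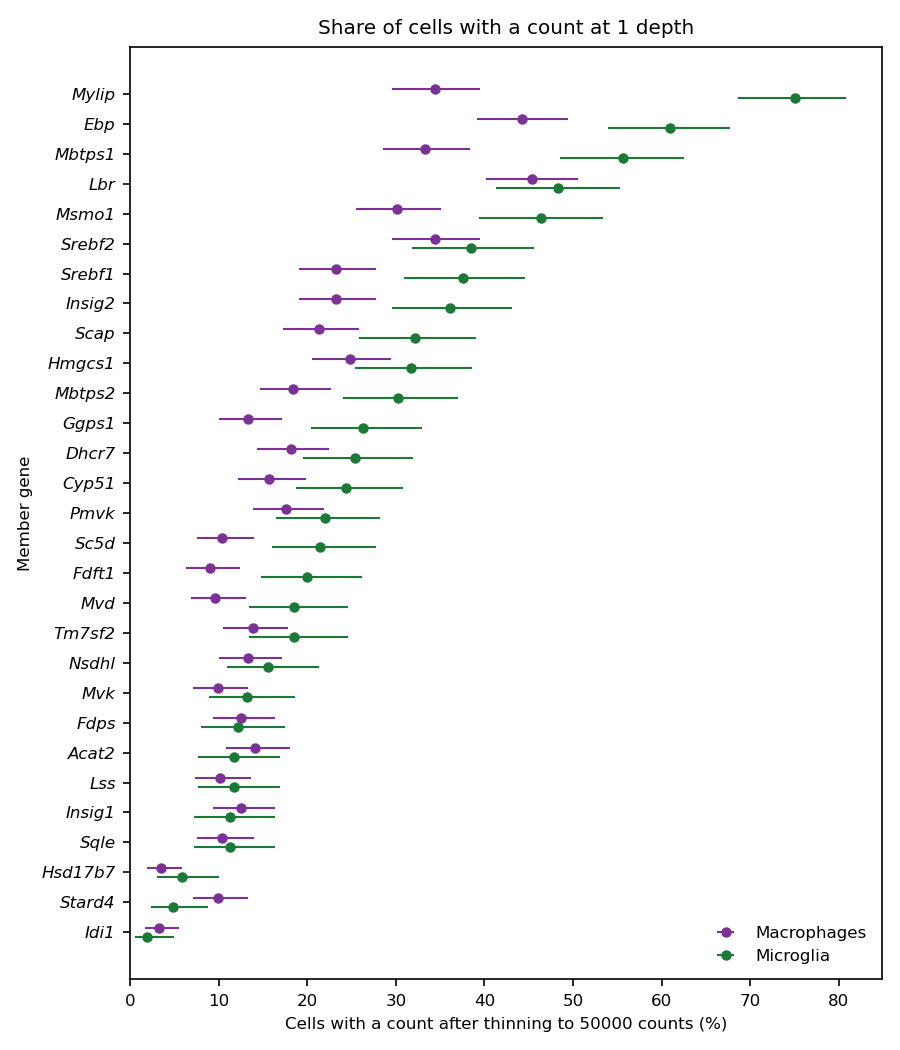
Percent of macrophages and microglia with a count of each member, in cells of at least 50000 counts thinned to that depth. Bars are exact binomial 95% intervals, which treat cells as independent draws and leave out spread between plates and animals. Mylip has the widest gap, at 34.4% of macrophages and 75.1% of microglia.

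Genes around the pathway were followed through 4 lists, and the share of all measured genes stands beside each call. Of 13 cholesterol efflux and LXR genes 11 were measured, and Lipa, the lysosomal acid lipase, was higher in KO than in WT macrophages, at 901 against 553 CPM, while none was lower, beside 4.3% and 8.35% of all genes. In microglia none of them was apart between KO and WT. Rxra, the partner of LXR, was higher in KO than in Het microglia, at 65.8 against 26.2 CPM, beside 6.72% of all genes. Between the cell types Apoe, the main lipid carrier of the brain, was higher in macrophages, at 69025 against 35538 CPM, and Abcg1 and Lpcat3 were lower, at 32.2 against 74.3 and 84.9 against 272 CPM, beside 3.14% higher and 4.75% lower of all genes. Of 12 fatty acid targets of SREBP, 9 were measured in macrophages and 8 in microglia. None was apart in KO against WT macrophages, and Acss2 and Fads1 were higher in KO than in WT microglia, at 15.5 against 2.60 and 290.3 against 190.2 CPM, beside 6.01% of all genes. Lpin1, a phosphatidate phosphatase, was highest in Het macrophages, at 59.6 CPM in KO, 119 CPM in Het and 52.1 CPM in WT, and Het was apart from both. Of 6 genes of SREBP and sterol sensor turnover, Rnf139, a sterol-regulated ubiquitin ligase, was lower in KO than in WT microglia, at 31.0 against 51.2 CPM, beside 4.98% of all genes. It was also lowest in Het macrophages, at 42.4 CPM in KO, 6.5 CPM in Het and 35.5 CPM in WT, with Het apart from both. Of 7 genes of isoprenoid use, Fntb, a farnesyltransferase subunit, was higher in KO than in WT microglia, at 24.1 against 6.36 CPM, beside 6.01% of all genes. Het macrophages were apart from both other genotypes in Fntb, at 30.7 CPM in KO, 10.1 CPM in Het and 21.5 CPM in WT, and in Dhdds, a dolichol synthesis subunit, at 37.1 CPM in KO, 81.0 CPM in Het and 46.0 CPM in WT. Beside these Het calls stand 2.1% of all genes higher and 4.95% lower over WT, and 6.21% higher and 5.1% lower in KO over Het. The median log2 ratios of the 4 lists for KO over WT ran from -0.31 to 0.24 in macrophages and from -0.47 to 0.15 in microglia.

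From cell to cell the members were hardly correlated. Across 393 macrophages the median Spearman rho of 66 pairs of the 12 members found most often was 0.024, beside 0.013 over all gene pairs of the same detection. Across 213 microglia it was 0.033 over 105 pairs of 15 members, beside 0.023. Above the 95th percentile of all gene pairs lay 7 of 66 member pairs in macrophages and 8 of 105 in microglia. In thinned cells the medians were 0.052 in macrophages, beside 0.011, with 11 of 66 pairs above that percentile, and 0.039 in microglia, beside 0.017, with 5 of 105. Each pool's mean was subtracted first. Pairs share cells and depth, and in counts this sparse such values are no finding.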

How the data were processed

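Read counts per gene, raw and in whole numbers, were deposited by the authors with 1 column for each of 629 cells, and every column matched a sample title. The submitters' processing notes name STAR; build, annotation, counting program and cell filters are not given in the sources used here. For each genotype, cell type or pool the cells' counts were added up and scaled to CPM without 92 ERCC sequences and Rn18s. Ratios were taken on CPM + 1, with exact Poisson and Clopper-Pearson 95% intervals, in Python 3.11.15, numpy 2.4.6, pandas 2.3.3 and scipy 1.17.1. No test was run, because no label names an animal. Alternatives changed scaling (edgeR 4.0.16 in R 4.3.3), pseudocount, floors, depth, cells and plates. The ratios were checked on simulated Poisson counts with known fold changes, and the median ratios came back close to those set. The simulation had no spread between plates or animals, so it does not show how often unchanged genes are called apart in real pools. Exon lengths, overlaps and near-identical copies (95% over 200 bases) came from GENCODE M21, which need not be the authors' annotation; promoters came from RefSeq. Counting is not stated to use strand. All 29 members are named: those apart in any comparison, 10 pathway genes and the 3 highest per kilobase with levels in each group, and the rest as ranges. Members and lists were chosen with earlier results of these data known.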

Additional observations from a re-analysis of the deposited data

Results flagged for a closer look

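The summed levels of Lss, Nsdhl, Fdps and Msmo1 differed by genotype at least 1.5-fold, in opposite directions in the 2 cell types. Every pool of the compared genotype lay on 1 side of the other genotype's summed level. Pools of the genotypes overlapped, except for Lss in KO over WT macrophages and KO over Het microglia, and Nsdhl in KO over WT macrophages. In Het macrophages Fdps was at 17.0, 2.02 and 3.72 CPM on plates 056s, 524s and 529s, beside 9.60 and 7.16 CPM in KO. Msmo1 was at 127, 17.8 and 35.0 CPM there, beside 79.9 and 38.6 CPM in KO. The difference between cell types was not tested. For KO over WT the log2 ratio of Lss was 1.17 in macrophages and -2.02 in microglia, and that of Nsdhl -1.05 and 0.70. For KO over Het it was 1.09 and -0.68 for Lss, -0.69 and 0.69 for Fdps and -0.72 and 0.68 for Msmo1. Inside plate 524s, the one plate with KO and Het, these were -1.11 and -0.62 for Lss, 1.43 and 0.57 for Fdps and 1.08 and -0.38 for Msmo1, so that the macrophage direction of all 3 genes and the microglial direction of Msmo1 were reversed there. KO had 2 pools in each cell type. The counts of Fdps and Msmo1 are uncertain, as said above. The 14 cells of the type labelled 7 enter no comparison; in them the 29 members summed to 1226 CPM over 763324 counts.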

How the results depend on the processing

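Apart from leaving out 1 plate, the alternatives kept all plates or took plate 524s or 529s alone. Among these, 63 of 74 medians stayed within the spread between pools, and 61 of 81 counts of members apart within 1.5 times. The exceptions follow, and their cause was not tested unless the setting itself gives it. With Rn18s kept in the total the median was 0.017 for KO over WT macrophages, 0.53 for Het over WT macrophages, -0.28 for KO over Het macrophages and -0.25 for Het over WT microglia, and 3, 0 and 1 members were apart in KO over WT macrophages, Het over WT macrophages and KO over Het microglia. For KO over WT macrophages the median was 0.060 with 8 apart by RLE scaling, 0.19 with 8 apart by the mean of pools, and 0.14 with 2 apart in thinned cells. Without each gene's top cell per pool the median was -0.25 for Het over WT and 0.46 for KO over Het macrophages, and 2 members were apart in KO over WT of either cell type. A 2-fold limit left 0 apart in Het over WT macrophages, 2 in KO over WT microglia and 0 in KO over Het microglia, where a pseudocount of 5 and thinned cells left 1 each. Macrophages over microglia had 2 members apart when CPM was averaged over single cells, 1 in thinned cells and 1 without top cells. Lss of KO over Het microglia reversed to 0.12 in thinned cells. Plate 529s alone gave 11 apart in Het over WT macrophages and 14 in microglia, with a microglial median of 0.017, and plate 524s alone 17 in KO over Het macrophages and 15 in microglia, with a microglial median of -0.27; 1 pool a side makes the rule easier to meet, as does leaving out a plate. With 1 plate left out, the median ranged from -0.078 to 0.18 for KO over WT, -0.12 to 0.18 for Het over WT and -0.27 to 0.15 for KO over Het macrophages, from -0.69 to -0.23, -0.83 to -0.12 and -0.29 to 0.30 for the same in microglia, and from 0.05 to 0.27 for macrophages over microglia. Members apart then numbered 5 to 12, 1 to 4 and 4 to 10 in macrophages, 4 to 8, 3 to 12 and 2 to 11 in microglia, and 0 to 1 between cell types. Dhcr7 of KO over WT macrophages stayed apart in 9 of 9 alternatives and Mvd in 8 of 9. No paired test was run, because no label names an animal. Plates served as blocks for description only, in the values inside plates and in the pools that hold both cell types. Shares of promoters with a motif moved by less than their intervals; the median correlation of members in thinned cells was 0.052 in macrophages, over 1.5 times the 0.024 of all cells, and 0.039 in microglia. Depth limits members of few counts, such as Idi1.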
